A study of Homo sapiens with 6 samples.

Results

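Transcripts of 10 genes whose products restrain mTORC1 were counted in RNA-seq libraries of cells labelled HepG2, a long-established hepatoma cell line, and described by the series as CD133+, that is, positive for the surface antigen encoded by PROM1. PROM1 and most hepatocyte markers tested were at or near 0, which goes against both descriptions. The genes were taken by symbol from a list of known inhibitors (DDIT4, DDIT4L, SESN1, SESN2, SESN3, TSC1, TSC2, DEPTOR, AKT1S1 and CASTOR1), and all 10 were found among the 61806 genes of the deposited table. The control group comprised 3 libraries titled 133G2-NC, with the genotype given as WT. The other group comprised 3 libraries titled 133G2-shLAP, in which LAPTM4B, a lysosomal and late endosomal membrane protein, was knocked down. No sequence of the knockdown construct, time after knockdown or number of clones is given in the sources used here. Nor do the labels say whether each replicate was its own culture. A p-value here therefore reflects only how far these samples spread, which may be technical, and in bulk RNA fewer cells of a type and less RNA per cell cannot be told apart.

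The protein kinase complex mTORC1 sits on the lysosome surface and promotes protein and lipid synthesis when amino acids and growth factors are available. Growth factor signals reach it through the small GTPase RHEB, which the TSC1-TSC2 complex switches off, and REDD1 (encoded by DDIT4) favours that complex under low oxygen and other stress. Amino acid signals reach it through the Rag GTPases, upstream of which the sestrins, as leucine-responsive proteins, and CASTOR1, as an arginine sensor, hold back the activator GATOR2. DEPTOR and PRAS40 (encoded by AKT1S1) instead bind the mTOR complexes directly.

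The libraries held 15204269 to 19987318 counts, so that 3 counts corresponded to 0.150 to 0.197 CPM (counts scaled to the size of the library), a limit that covers counting error only. Levels below are CPM scaled with trimmed-mean (TMM) factors, given as mean ± SD over 3 libraries, and changes are knockdown relative to control. The targeted gene, LAPTM4B, was at 327, 325 and 350 CPM in control replicates 1 to 3 and at 227, 237 and 232 CPM in knockdown replicates 1 to 3. The groups did not overlap, and the knockdown left most of the transcript: it fell by 30.6%. Of the hepatocyte markers ALB, APOA1, APOB, TTR, HNF4A and AFP, the first 3 had 0 counts in every library, and only HNF4A, a liver transcription factor, exceeded 4 counts, with 52 to 104. PROM1, the gene of the CD133 antigen, had 1 to 3 counts in each control and 6 to 12 in each knockdown library. Summed over 4 markers each, fibroblast genes lay at 9.27 to 12.4 CPM in control and 11.2 to 14.2 CPM in knockdown libraries, with none at 0 in all 3 libraries of a group. Most of this was COL1A1, with 129 to 210 counts per library, against at most 15 each for COL1A2, DCN and LUM. Endothelial genes lay at 1.14 to 3.11 and 0.510 to 1.03 CPM, with KDR at 0 in the controls, and leukocyte genes at 0.842 to 1.19 and 0.388 to 0.892 CPM, with CD3E at 0 in the controls. The part of such cells in the results was not tested.

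The inhibitor genes did not move as a group. Of the 10, 8 were expressed highly enough to test. SESN2, AKT1S1 and SESN1 rose after knockdown, DEPTOR, DDIT4 and TSC1 fell, and SESN3 and TSC2 did not pass an adjusted p of 0.05 (edgeR quasi-likelihood test, Benjamini-Hochberg over 16354 genes). CASTOR1 had 1 to 5 counts per library and DDIT4L none, and neither was tested. In this comparison 55.9% of all genes tested were called, 28% as higher and 27.9% as lower, and the 6 of 8 called here are to be read against that share. Limma on FPKM without TMM factors, restricted to genes averaging 1 FPKM or more, split the calls as 4496 higher and 2915 lower. The median log2 change was 0.04 over the 8 genes and 0.0069 over all genes tested. What set DDIT4, SESN2 and DEPTOR apart was the size of their changes. An absolute log2 change of at least 1 was reached by 11.5% of all genes tested and by these 3 of the 8.

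**Figure D1:**
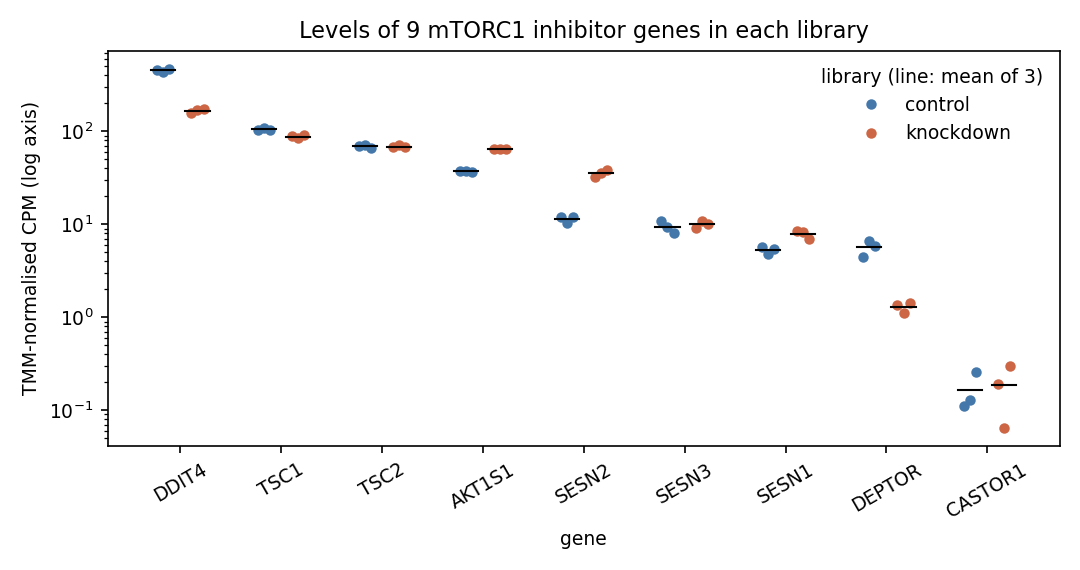
TMM-normalised CPM (log axis) of 9 genes in each of 3 control (blue) and 3 knockdown (orange) libraries, with a line at each mean. DDIT4, TSC1 and DEPTOR sit lower in all 3 knockdown libraries, AKT1S1, SESN2 and SESN1 sit higher, and the groups overlap for TSC2, SESN3 and CASTOR1. DDIT4L, at 0 counts throughout, is not drawn.

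DDIT4 was by far the most abundant of the inhibitors and lost most of its transcript. It encodes REDD1, a stress-induced protein that acts through the TSC complex, and lies on chromosome 10 from 72273919 to 72276036 (hg38, + strand), where no other gene of the deposited table overlaps it. It stood at 453, 436 and 473 CPM in control libraries, against 159, 169 and 173 CPM after knockdown. The 3 knockdown libraries lay close together and far below the lowest control. The mean went from 454 ± 18.6 to 167 ± 7.15 CPM, a log2 fold change of -1.44 with a standard error of 0.04 (adjusted p = 2.96e-21, edgeR), or 2.71-fold lower. Of all genes tested, 5.91% changed by more in either direction and 4.04% had a lower log2 change. It was read 6727 to 9155 times per control library and 2501 to 2898 times in the knockdown ones. Counting error alone amounts to 1.12% and 1.93% of the level, against observed coefficients of variation of 4.10% and 4.27%. Its paralogue DDIT4L, which codes for the related protein REDD2 (chromosome 4, 100185870 to 100190782), had 0 counts in all 6 libraries, which allows up to 0.197 CPM in the shallowest.

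Even after its fall DDIT4 stayed the highest of the family per length. FPKM divides counts by exonic gene length and by the library total, without TMM factors. In FPKM DDIT4 stood at 209 ± 6.77 in control and 80.5 ± 3.78 in knockdown cells, where 0.624% and 2.24% of the genes tested were higher. It supplied 90.2%, 89.7% and 90.7% of the summed FPKM of the 10 genes in the control libraries and 70.3%, 71.0% and 70.9% in the knockdown libraries. The share fell by 19.5 percentage points without overlap of the groups (exact two-sided permutation test, p = 0.10, the smallest that 3 against 3 libraries allow). The summed FPKM of all 10 fell 2.04-fold, from 232 ± 6.28 to 114 ± 4.84, whereas the sum of the other 9 rose 1.46-fold, from 22.7 ± 0.499 to 33.3 ± 1.08 (exact permutation p = 0.10 for both, n = 3 and 3). By CPM on plain library totals, without TMM factors or division by length, the DDIT4 share was 63.6% to 66.6% in control libraries. In knockdown libraries it was 37.0% to 38.3%. By this CPM the sum of all 10 fell 1.51-fold and that of the other 9 rose 1.18-fold. All of these sizes therefore depend on the scale. Within those 9, SESN2, AKT1S1 and SESN1 rose while DEPTOR and TSC1 fell.

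The genes most like DDIT4 were sought among 4767 genes with a mean of at least 50 CPM, by the root mean square difference between log2 CPM values centred on each gene's mean over the 6 libraries. The closest were NPC1 (0.0423), which exports cholesterol from lysosomes, IDI1 (0.0424), an enzyme of isoprenoid synthesis, and ARRDC3 (0.0437), an alpha-arrestin. Their levels fell from 464 ± 7.04 to 171 ± 4.71 CPM, from 220.5 ± 1.95 to 78.8 ± 2.89 CPM and from 98.7 ± 1.29 to 36.5 ± 1.56 CPM respectively. The likeness rests mainly on the step between the groups, which all 6 libraries share.

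The 250 bases before the RefSeq start of DDIT4 (GRCh38.p14, chr10:72273674-72273923, + strand) are shown because the gene is a textbook target of the hypoxia-inducible factors, whose binding core is written ACGTG or GCGTG. Matches on either strand are in capitals.
DDIT4: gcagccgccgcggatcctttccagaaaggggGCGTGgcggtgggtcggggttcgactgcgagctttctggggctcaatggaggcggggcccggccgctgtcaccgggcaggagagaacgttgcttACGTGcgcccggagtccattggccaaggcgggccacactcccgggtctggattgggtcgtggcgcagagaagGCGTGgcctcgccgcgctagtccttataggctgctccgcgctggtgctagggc
The window holds ACGTG beginning 125 bases before the start and GCGTG beginning 219 and 53 bases before it, all on the + strand. Such matches are common: 18.5% of 35116 RefSeq windows of this length hold ACGTG, 32.2% hold GCGTG and 43.2% hold at least 1 of them. ACGTG can also lie inside the E-box CACGTG, which reads the same on both strands. Of 11 such windows examined for 8 of the inhibitor genes, 4 hold either core. DEPTOR and AKT1S1 are not among these 8 genes.

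The sestrins are stress-inducible proteins that bind GATOR2 when leucine is scarce, and only part of this family rose. SESN2 (chromosome 1, 28259518 to 28282491, hg38) was at 11.9, 10.3 and 11.9 CPM in control and 32.4, 35.6 and 38.1 CPM in knockdown libraries. All knockdown libraries were more than 2-fold above all controls. The mean rose from 11.4 ± 0.918 to 35.4 ± 2.85 CPM, a log2 fold change of 1.63 with a standard error of 0.09 (adjusted p = 1.44e-14, edgeR) or 3.10-fold, and 1.46% of the genes tested had a higher log2 change. No other gene of the table overlaps it.

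SESN1 (chromosome 6, 108984309 to 109094846), another stress-inducible sestrin, was at 5.73, 4.80 and 5.48 CPM in control and 8.41, 8.21 and 6.94 CPM in knockdown libraries. The groups did not overlap, but the gap between control replicate 1 and knockdown replicate 3 was narrow. It rose 1.47-fold, a log2 fold change of 0.55 with a standard error of 0.15 (adjusted p = 0.00274, edgeR), on 74 to 132 counts per library, and this call was lost with limma on log2(FPKM + 0.1) without a filter (adjusted p = 0.0580). SESN3 (chromosome 11, 95165513 to 95232541), which in other cells is a target of FOXO factors, was at 10.9, 9.33 and 8.01 CPM in control and 9.05, 10.8 and 10.1 CPM in knockdown libraries. These ranges overlapped, and the log2 fold change of 0.08 with a standard error of 0.13 (adjusted p = 0.604, edgeR) has a 95% interval of -0.17 to 0.34, which leaves out a change of the size seen in SESN2.

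**Figure D2:**
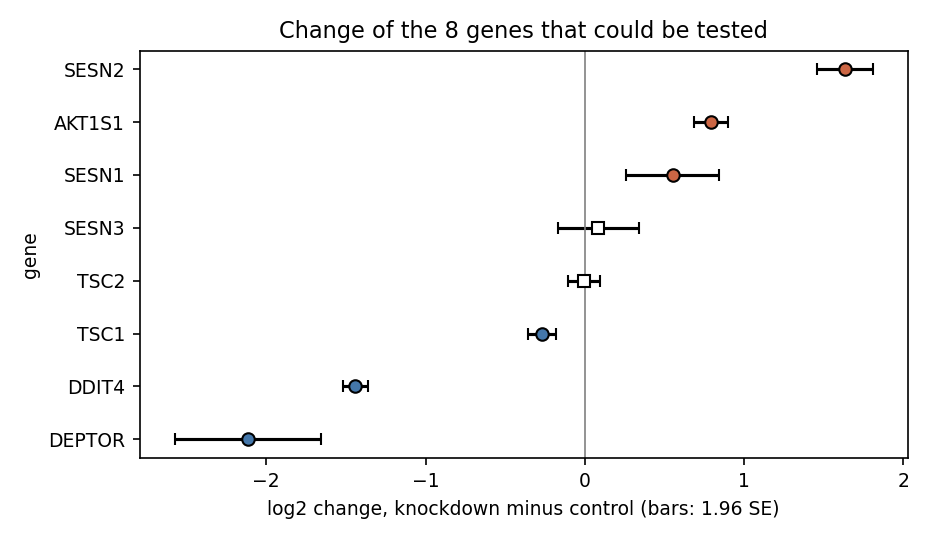
Log2 change of the 8 tested genes, knockdown minus control, with 95% intervals as bars; filled circles passed an adjusted p of 0.05 and open squares did not. SESN2 (1.63) and DEPTOR (-2.12) lie at the ends, and the bars of TSC2 and SESN3 cross 0.

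The make-up of sestrin transcripts shifted accordingly. SESN2 supplied 65.4%, 65.9% and 69.5% of the summed sestrin FPKM in control libraries and 82.3%, 82.7% and 85.2% in knockdown libraries. The SESN1 share went from 14.9% ± 0.323 to 8.88% ± 1.40 although its own level rose, and the SESN3 share from 18.2% ± 2.45 to 7.70% ± 0.444. The sizes depend on the length used: by CPM the SESN3 share was 36.0% ± 3.83 and 18.7% ± 0.898, and with the longest coding transcripts the SESN1 share was 26.2% ± 0.536 and 16.6% ± 2.40. None of the FPKM shares overlapped between the groups (exact permutation p = 0.10 each, n = 3 and 3). Together the sestrins rose 2.60-fold, from 4.79 ± 0.346 to 12.5 ± 0.853 FPKM. By CPM on plain library totals their sum rose 2.12-fold, and with the longest coding transcripts 2.43-fold. The ratio of DDIT4 to SESN2 FPKM went from 65.5 ± 3.49 to 7.75 ± 0.300 (exact permutation p = 0.10, n = 3 and 3).

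**Figure D3:**
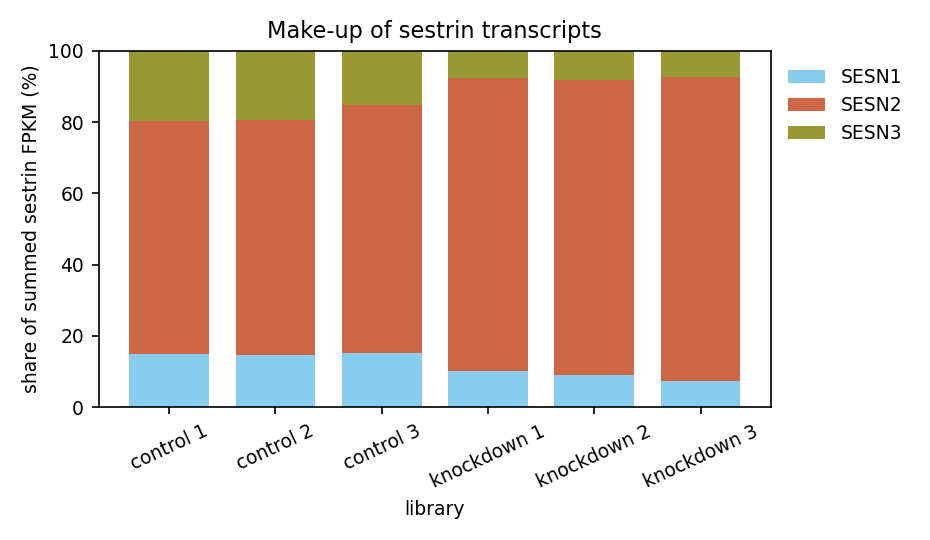
Share of SESN1, SESN2 and SESN3 in the summed sestrin FPKM of each library, stacked to 100%. The SESN2 band covers 65.4% to 69.5% in the 3 control and 82.3% to 85.2% in the 3 knockdown libraries.

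The window before SESN2 (GRCh38.p14, chr1:28259268-28259517, + strand) is shown for comparison with that of DDIT4. Capitals would mark ACGTG or GCGTG.
SESN2: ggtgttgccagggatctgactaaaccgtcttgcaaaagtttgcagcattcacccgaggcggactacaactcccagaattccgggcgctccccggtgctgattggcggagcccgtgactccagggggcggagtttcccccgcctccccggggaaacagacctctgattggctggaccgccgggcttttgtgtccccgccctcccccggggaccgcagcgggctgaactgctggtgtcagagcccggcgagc
Neither hypoxia core is in the SESN2 window on either strand, nor is TGATGNAAN, a form of the element read by ATF4, which 3.13% of all windows hold and which among the 11 windows was found only in 1 of the 2 for TSC2. The absence of these letters concerns these windows alone.

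Of the TSC complex, the GTPase-activating complex for RHEB, TSC1 fell slightly and TSC2 did not pass the threshold. TSC1, its scaffold subunit (chromosome 9, 132891348 to 132946874), was at 104, 109.8 and 103 CPM in control and 88.5, 84.2 and 90.4 CPM in knockdown libraries. The groups did not overlap, and the gene was 1.21-fold lower, a log2 fold change of -0.27 with a standard error of 0.05 (adjusted p = 1.61e-05, edgeR), smaller in size than that of 53.9% of the genes tested. TSC2, the catalytic subunit (chromosome 16, 2047967 to 2089491), was at 69.7, 71.2 and 66.2 CPM in control and 67.3, 71.3 and 67.8 CPM in knockdown libraries. Its ranges overlapped, and its log2 change had a 95% interval of -0.10 to 0.09 (edgeR adjusted p = 0.955). The ratio of TSC1 to TSC2 FPKM went from 1.67 ± 0.0359 to 1.39 ± 0.0910 (exact permutation p = 0.10, n = 3 and 3). TSC2 overlaps PKD1 on the opposite strand, which fell from 56.9 ± 6.07 to 49.9 ± 1.76 CPM (edgeR adjusted p = 0.0181). Use of strand in counting is not stated, so reads of this pair cannot be told apart where they overlap.

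The direct binders of the mTOR complexes moved in opposite directions. AKT1S1, encoding PRAS40, an mTORC1 component whose hold on the kinase is released by AKT (chromosome 19, 49869033 to 49878459), was at 37.6, 37.5 and 36.7 CPM in control and 64.6, 64.3 and 64.9 CPM in knockdown libraries. It rose 1.73-fold, a log2 fold change of 0.79 with a standard error of 0.05 (adjusted p = 1.54e-12, edgeR), and 5.99% of the genes tested rose by more. Its coefficients of variation, 1.22% and 0.491%, were below the 3.91% and 3.11% that counting error alone gives, so the small SDs are no sign of precision. It overlaps TBC1D17 on the opposite strand, at 14.2 ± 1.05 and 13.1 ± 1.27 CPM (edgeR adjusted p = 0.395). How reads were assigned where AKT1S1 overlaps other annotated genes is not stated, so its value is uncertain to that extent.

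DEPTOR, which inhibits both mTOR complexes, had the largest change of the 8. It was at 4.45, 6.68 and 5.84 CPM in control and 1.34, 1.10 and 1.44 CPM in knockdown libraries. The highest knockdown library was far below the lowest control. The mean fell from 5.65 ± 1.12 to 1.29 ± 0.173 CPM, a log2 fold change of -2.12 with a standard error of 0.23 (adjusted p = 1.81e-08, edgeR) or 4.33-fold lower. Only 80 to 113 reads per control library and 17 to 24 in the knockdown ones lie behind this, and on the log2(FPKM + 1) scale, which understates changes of low genes, the value was -1.04.

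CASTOR1, the arginine sensor (chromosome 22, 30285117 to 30289622), had 2, 2 and 5 counts in control and 3, 1 and 5 counts in knockdown libraries. That is at or near the limit of 3 counts, and no difference was detectable at this depth.

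Ordered by FPKM, the control levels ran from DDIT4 through AKT1S1 (6.35 ± 0.128), TSC1 (5.88 ± 0.242), TSC2 (3.53 ± 0.163), SESN2 (3.21 ± 0.239), DEPTOR (2.10 ± 0.425), SESN3 (0.870 ± 0.138) and SESN1 (0.716 ± 0.0616) to CASTOR1 (0.0592 ± 0.0280). Of these neighbours, TSC2 and SESN2, and SESN3 and SESN1, overlapped in their ranges. In knockdown cells SESN2 had moved up to 10.4 ± 0.886 FPKM, just below AKT1S1 at 11.5 ± 0.109, and DEPTOR had dropped below SESN3 and SESN1 to 0.501 ± 0.0688. Only SESN1 and SESN3 overlapped there. The deposited exonic sizes of TSC1 and TSC2, 17600 and 19128 bases, are far above their longest coding transcripts in GENCODE release 29, 8715 and 6344 bases. With those transcript lengths the control order became DDIT4, TSC1, TSC2, AKT1S1 and SESN2, with TSC2 and AKT1S1 overlapping in their ranges. In knockdown cells TSC2, SESN2 and TSC1 overlapped. The middle of the order therefore depends on the length used, while DDIT4 stayed first in both groups.

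Other genes of the pathway were taken from lists by role. Among 10 subunits and assembly factors of the mTOR complexes 4 rose, 1 fell and 5 missed the threshold (median 0.08 on the log2 scale). The gene that fell was RICTOR, the defining subunit of mTORC2, from 437 ± 43.4 to 232 ± 10.2 CPM (edgeR adjusted p = 1.55e-14). RICTOR overlaps OSMR, a cytokine receptor gene, on the opposite strand, and OSMR, named after its values were seen, fell from 836 ± 6.74 to 447 ± 7.32 CPM. Reads of this pair cannot be told apart where the genes overlap. The mTORC2 components MAPKAP1 and PRR5L rose from 92.9 ± 6.95 to 122 ± 3.05 CPM and from 4.79 ± 0.396 to 9.26 ± 0.552 CPM. MTOR and RPTOR, named after their values were seen, were at 156 ± 1.10 and 173 ± 6.66 CPM (edgeR adjusted p = 0.00270) and at 46.5 ± 2.95 and 49.95 ± 2.11 CPM (edgeR adjusted p = 0.156).

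At the RHEB node, RHEB rose from 106 ± 6.25 to 127 ± 0.682 CPM and TBC1D7, the third subunit of the TSC complex, from 6.54 ± 0.871 to 10.9 ± 1.05 CPM. The RHEB-like gene RHEBL1 was lower, at 8.50 ± 1.54 and 6.15 ± 0.617 CPM (edgeR adjusted p = 0.0124), but its groups overlapped and the call was lost with DESeq2 (0.0593), with limma on FPKM (0.0558 to 0.138) and without control replicate 1 (0.0849) or knockdown replicate 1 (0.0572).

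On the amino acid branch, 1 of 7 genes of GATOR1, the brake on the Rag GTPases, and its anchor KICSTOR rose, 2 fell and 4 did not pass (median -0.07). NPRL2 fell from 23.8 ± 0.803 to 18.3 ± 2.26 CPM, a call lost with limma on log2(FPKM + 0.1) without a filter (adjusted p = 0.0578). NPRL3 and KICS2 were called at edgeR adjusted p = 0.0194 and 0.0208, and lost the call with DESeq2 (0.105 and 0.0974) and with some libraries left out. Of 8 genes of GATOR2 and other sensors 3 rose, 3 fell and 2 did not pass (median 0.0046). WDR59 fell from 59.5 ± 3.26 to 31.5 ± 1.04 CPM while MIOS rose by 0.44 on the log2 scale (edgeR adjusted p = 5.54e-06), both GATOR2 subunits. CASTOR2, the paralogue and binding partner of CASTOR1, was well detected and rose from 21.4 ± 1.58 to 30.9 ± 2.64 CPM.

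Among 16 kinases and regulators upstream of TSC2, 3 rose, 5 fell and 8 did not pass (median -0.07). AKT1, which inactivates both TSC2 and PRAS40, fell from 162 ± 2.71 to 132 ± 3.17 CPM. AMP-activated kinase, which activates TSC2 under energy stress, was mixed: its catalytic subunit gene PRKAA2 fell from 208 ± 23.8 to 87.5 ± 0.587 CPM and its regulatory subunit gene PRKAB1 rose from 19.2 ± 1.24 to 28.5 ± 0.309 CPM. Of 14 tested substrates and effectors of mTORC1, 5 rose, 5 fell and 4 did not pass (median 0.09). LPIN1, a phosphatidate phosphatase that mTORC1 phosphorylates, fell from 156 ± 7.30 to 36.8 ± 2.67 CPM. The translation factor EIF4B fell from 1216 ± 19.9 to 898 ± 6.28 CPM and LARP1, a regulator of ribosomal protein mRNAs, rose from 409 ± 10.7 to 528 ± 12.1 CPM. These are transcript levels, and the activity of mTORC1 was not measured.

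**Figure D4:**
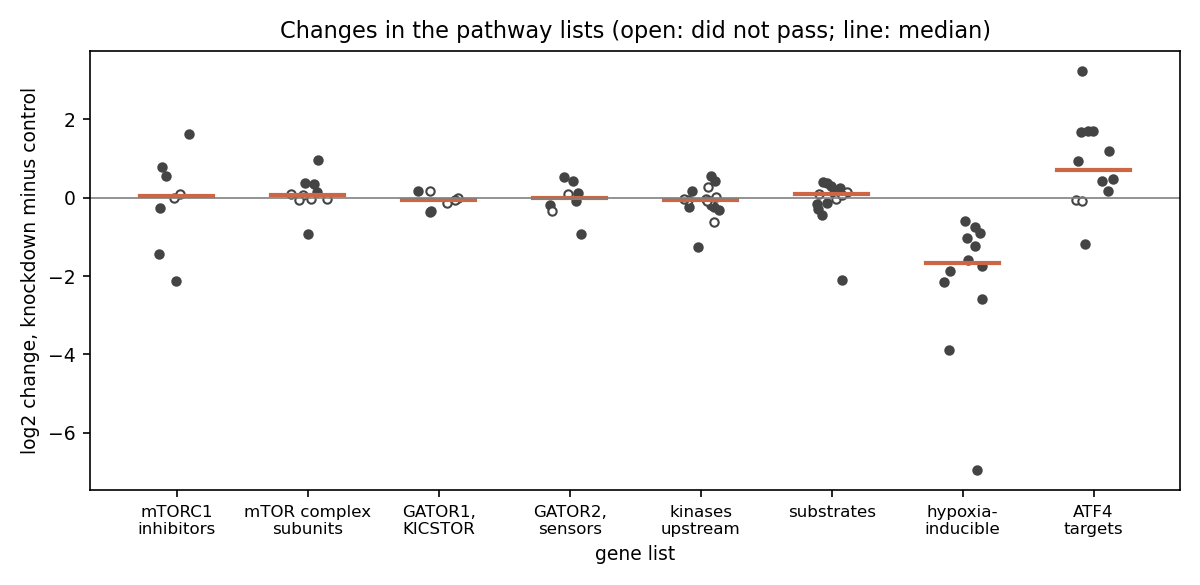
Log2 change of each tested gene, knockdown minus control, in the mTORC1 inhibitors and 7 other lists; open points did not pass and lines are medians. The medians of the inhibitors (0.04) and mTOR complex subunits (0.08) lie near 0, that of hypoxia-inducible genes at -1.66 and that of ATF4 targets at 0.70.

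The inhibitor genes also belong to stress responses, whose other target genes were set beside them in lists chosen with their behaviour here known. All 12 of the other hypoxia-inducible genes fell, against 27.9% of all genes tested (median -1.66; log2 changes from -6.95 to -0.60), but since the list was chosen with this known, the count supports nothing about DDIT4. Among them NDRG1 fell from 1433 ± 35.4 to 97.1 ± 1.60 CPM, BNIP3, a mitophagy receptor, from 170 ± 4.82 to 46.8 ± 2.02 CPM, and the pH-regulating enzyme gene CA9 from 42.3 ± 1.90 to 0.334 ± 0.0700 CPM, on 4 to 6 counts per knockdown library. Of 12 other ATF4 targets, the class to which SESN2 belongs, 9 rose (28% of all genes tested did), 1 fell and 2 did not pass (median 0.70). Since this list was also chosen with its behaviour known, the count supports nothing about SESN2. SLC7A11, the cystine transporter, rose from 155 ± 27.6 to 505.5 ± 4.75 CPM, PSAT1, an enzyme of serine synthesis, from 85.2 ± 4.60 to 197 ± 6.90 CPM, and NUPR1, a stress regulator, from 3.52 ± 0.563 to 33.3 ± 0.948 CPM. DDIT4 is known as a target of ATF4 as well as of hypoxia, so these classes overlap.

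Genes of 12 transcription factors known to act on DDIT4 or sestrin genes were all called, 6 higher and 6 lower (median 0.01), where 28% and 27.9% of all genes tested were. This list, too, was chosen with earlier results known. ATF4 rose from 158 ± 5.77 to 246.5 ± 2.50 CPM and DDIT3, its partner in prolonged stress, from 12.7 ± 2.24 to 27.0 ± 1.37 CPM. FOXO1, from 45.2 ± 0.943 CPM, fell by 0.69 on the log2 scale. The alpha subunits of the hypoxia-inducible factors, named after their values were seen, moved oppositely: HIF1A was at 352 ± 13.4 and 299 ± 0.734 CPM (log2 fold change -0.24, adjusted p = 2.76e-06 by edgeR) and EPAS1 at 287 ± 13.0 and 339 ± 3.82 CPM (log2 fold change 0.24, adjusted p = 3.55e-06 by edgeR). Activity of these factors was not measured, and their part in the changes of DDIT4 and the sestrins was not tested.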

How the data were processed

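Whole-number gene counts and FPKM values of 6 libraries were taken from the authors' deposited table, as its file headers name them. FPKM recomputed from the counts, the deposited exonic sizes and the library totals matched every deposited value within 0.0051. Per the labels' protocols, libraries were made from total RNA with an Illumina TruSeq kit, and per the submitters' processing notes the build was hg38. The aligner, counter, annotation and any use of strand were not given in the sources used here.

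The 16354 genes kept by filterByExpr were fitted with the quasi-likelihood method of edgeR 4.0.16 (R 4.3.3) after TMM scaling, two-sided, with Benjamini-Hochberg adjustment and a threshold of 0.05. The SE is the log2 change divided by the square root of F. Shares and ratios were tested by exact permutation of the libraries. Alternatives used DESeq2 1.42.0 and limma 3.58.1. The fits were tested on simulated data. Replicates were all distinct libraries, with a chi-square of 1.89 to 4.38 per gene between them. The labels name no batch, so no within-batch value could be given.

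The 10 genes and all lists were chosen with earlier results of these data known. Named genes were those 10, LAPTM4B, the (at most) 3 smallest p-values of each list, and the 3 genes closest to DDIT4. Promoter windows came from RefSeq (GRCh38.p14). Some items tested are not reported here.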

Additional observations from a re-analysis of the deposited data

How the results depend on the processing

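When DESeq2, median-of-ratios factors, no count filter or a replicate block was used, or any 1 library was left out, 3 of the inhibitor genes were higher and 3 lower, as in the edgeR result. Limma on FPKM gave 2 higher and 3 lower: SESN1 and SESN3 were below the minimum mean of 1 FPKM, and without that minimum SESN1 had an adjusted p of 0.0580. Log2 changes over all alternatives ran from -1.48 to -1.37 for DDIT4, from 1.44 to 1.69 for SESN2, from 0.76 to 0.84 for AKT1S1, from -0.29 to -0.18 for TSC1, from 0.48 to 0.64 for SESN1 and from -2.27 to -1.04 for DEPTOR. Genes that were not called changed sign. TSC2 ranged from -0.030 with 1 library left out and turned to 0.0087 without control replicate 2, to 0.015 and 0.0100 without knockdown replicates 1 and 3, and to 0.053, 0.042 and 0.053 in the limma fits, and SESN3 to -0.021 without control replicate 3 (up to 0.20 without another library).

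Over all genes, 4559 were lower with edgeR against 2915 and 2925 with limma on genes of at least 1 FPKM and 3142 without that minimum, and the cause was not tested. Leaving out 1 library gave 4056 to 4635 higher and 4144 to 4606 lower genes. Shares of summed CPM, which favour long genes, moved the difference in SESN2 share from 16.5 to 22.9 percentage points, that of SESN3 from -10.5 to -17.3 and that of DDIT4 from -19.5 to -27.3. With lengths of the longest coding transcripts, an alternative chosen after seeing the data, SESN1 moved from -6.05 to -9.58, SESN2 to 18.9 and DDIT4 to -21.8. Same-numbered libraries did not deviate together (correlations across genes 0.0231, -0.0496 and -0.0445). Such values cannot tell whether samples of the same number were prepared together, since counting error may hide a small shared part. The replicate block gave 4441 higher and 4408 lower genes. Depth limits CASTOR1 and DDIT4L, and the low counts of DEPTOR in the knockdown.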

Other observations

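The deposited annotation places 243 genes in the mTOR signaling pathway, 4 of them among the 10 inhibitors (DDIT4, TSC1, TSC2 and AKT1S1). Among the 131 genes with enough counts, 41 rose, 45 fell and 45 missed the threshold (edgeR, adjusted p under 0.05). That is 65.6% called against 55.9% of all genes tested, with a median log2 change of -0.0027. The set is as the annotation gives it and includes OSMR, the cytokine receptor gene that overlaps RICTOR. How genes were placed in it is not stated. By p, the first genes to rise were SLC7A5 and SLC3A2, which form the heterodimeric leucine transporter that supplies mTORC1. SLC7A5 had a log2 change of 1.68 and SLC3A2 of 1.63, close to the 1.63 of SESN2. By p, LPIN1 and DDIT4 were the first to fall. The annotation has no sestrin, DEPTOR or CASTOR1 gene in this pathway.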
